A study of Mus musculus with 4 samples.

Results

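The 6 genes described here, Gpr50, Rax, Lhx2, Vim, Nes and Foxj1, are known as markers of the cells that line the third ventricle of the hypothalamus. They were chosen by name from the gene column of the full array sheet, where each had 1 probe set, and they are 6 of 21265 genes with a single gene identifier. The study used 4 Affymetrix arrays of RNA from the hypothalamus of male mice at 12 weeks of age. Of these, 2 arrays held RNA of mice labelled ENOI2DeltaFosB (ENO2DeltaFosB in the series title), here called ΔFosB arrays A and B, and 2 held RNA of wild-type mice, here control arrays A and B. ΔFosB is a truncated FosB protein that accumulates in stimulated neurons, and the Eno2 gene, for neuron-specific enolase, is used as a neuronal promoter. The mice had no treatment, and the labels name neither the cells that carry ΔFosB nor whether an array holds 1 animal or a pool, so p-values measure the spread among these arrays alone, which may be technical.

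The lower walls and floor of the third ventricle are lined by tanycytes, long radial glial cells that take up nutrients and hormones from the cerebrospinal fluid, activate thyroid hormone and can divide. The upper walls are lined by ciliated ependymal cells, whose beating cilia move the fluid. Gpr50 is an orphan receptor related to the melatonin receptors. Rax and Lhx2 are homeobox transcription factors that specify tanycytes. Vim (vimentin) and Nes (nestin) form intermediate filaments of radial glia. Foxj1 switches on the genes of motile cilia. Most of these genes are not private to the ventricle wall: Gpr50 is also made in neurons of the dorsomedial hypothalamus, Vim in astrocytes and vessels, Nes in vessels, Lhx2 in cortex, and Foxj1 in choroid plexus.

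The promoters of Gpr50, Vim and Dio2 are shown first. RefSeq promoter windows of the build GRCm38.p6, running from 250 bases before to 50 after the annotated start, matched 4 of the 6 genes. Gpr50 and Vim are the members that rose, and Dio2, the gene of the enzyme that activates thyroid hormone in tanycytes, is the gene of the wider tanycyte set with the largest decrease. Capitals mark the letters of 4 motifs searched on both strands: the AP-1 motif TGACTCA, to which dimers with FosB bind, the cyclic AMP response element TGACGTCA, the CCAAT box CCAAT and the TATA box TATAAA.
Gpr50 (chrX:71663417-71663716, + strand): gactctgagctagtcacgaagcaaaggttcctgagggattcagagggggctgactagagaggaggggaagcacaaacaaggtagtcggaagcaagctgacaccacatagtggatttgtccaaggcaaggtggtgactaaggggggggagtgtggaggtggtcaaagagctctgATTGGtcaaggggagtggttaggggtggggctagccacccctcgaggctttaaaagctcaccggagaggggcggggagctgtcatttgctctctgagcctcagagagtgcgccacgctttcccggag
Vim (chr2:13574061-13574360, + strand): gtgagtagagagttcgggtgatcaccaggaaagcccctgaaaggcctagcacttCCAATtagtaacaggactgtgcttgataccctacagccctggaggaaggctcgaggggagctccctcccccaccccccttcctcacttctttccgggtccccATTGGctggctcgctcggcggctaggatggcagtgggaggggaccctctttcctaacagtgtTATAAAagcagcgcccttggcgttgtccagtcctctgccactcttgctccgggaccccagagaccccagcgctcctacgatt
Dio2 (chr12:90738989-90739288, - strand): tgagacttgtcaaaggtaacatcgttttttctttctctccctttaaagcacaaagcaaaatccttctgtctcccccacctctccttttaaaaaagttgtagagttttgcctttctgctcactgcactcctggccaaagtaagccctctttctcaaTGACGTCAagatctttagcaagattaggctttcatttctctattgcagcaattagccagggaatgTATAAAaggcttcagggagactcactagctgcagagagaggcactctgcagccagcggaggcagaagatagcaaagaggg
The Gpr50 window held 1 CCAAT box on the opposite strand, at position -77 from the start. The Vim window held CCAAT boxes at -196 and, on the opposite strand, at -94, and a TATA box at -32. The Dio2 window held a cyclic AMP response element at -95 and a TATA box at -30. None of the 3 windows held the AP-1 letters. No marked motif overlapped another in these windows. Scn7a is the tested gene of the wider tanycyte set with the largest increase. The windows of Scn7a, Lhx2 and Nes held none of the 4 motifs and are not shown. Among all 32851 windows of the same length, 5.20% held the AP-1 letters, 1.79% the cyclic AMP response element, 37.4% a CCAAT box and 13.6% a TATA box. A match of letters describes the sequence and is not a binding site.

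Log2 signals of the 2 groups were compared with limma's moderated test, ΔFosB minus control, over 14520 genes that passed a signal filter at 717, and a gene was called at a Benjamini-Hochberg adjusted p under 0.05. Dim signals were judged against 1216 probe sets of olfactory and vomeronasal receptors, genes with no known role in this tissue, whose 95th percentile was 831. Signals up to that value are called receptor range. Of the 6 genes, 5 passed the filter and Nes did not. Among the 5 tested, Gpr50 and Vim rose, 0 fell and 3 did not pass. Over all 14520 genes, 13.1% were called, 6.18% higher and 6.91% lower. The median log2 fold change of the 5 genes was 0.24, the value of Lhx2, which did not pass, against 0.02 over all genes tested. Over the 6 genes it was 0.19, against 0.05 over all genes without a filter. In bulk tissue, fewer cells of a type and less RNA per cell cannot be told apart.

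Gpr50 had signals of 2185 and 2373 on ΔFosB arrays A and B, against 1106 and 1115 on control arrays A and B. Both ΔFosB arrays lay far above both control arrays, whose values were almost equal. The means were 2279 ± 133 in ΔFosB and 1110.1 ± 6.48 in control arrays (SD, n = 2 each), a 2.05-fold difference. The log2 fold change was 1.04 (SE 0.07, limma adjusted p = 8.12e-05). Counting Gpr50 itself, 14 of the 14520 genes had a log2 fold change this high. Leaving out any 1 array gave 0.98 to 1.10, with the adjusted p at most 0.00119.

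Vim had signals of 5438 and 6381 on ΔFosB arrays A and B, against 4558 and 4231 on control arrays A and B. The groups did not overlap, but ΔFosB array B stood above array A by more than the control arrays stood apart. The means were 5909.9 ± 667 in ΔFosB and 4394 ± 231 in control arrays (SD, n = 2 each), a 1.34-fold difference. The log2 fold change was 0.42 (SE 0.08, limma adjusted p = 0.0104). The call ended when control replicate B was left out (0.37, adjusted p = 0.0527) and held with each other array left out. The second filament gene was too dim to compare. Nes had signals of 525 and 556 on ΔFosB arrays, against 508 and 599 on control arrays, so the control arrays enclosed both ΔFosB arrays. All 4 values lay in the receptor range and below the filter. In the fit without a filter, in which 8.09% of 21265 genes were called, 3.90% higher and 4.19% lower, the log2 fold change of Nes was -0.03 (95% interval -0.26 to 0.20, limma adjusted p = 0.867).

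**Figure D1:**
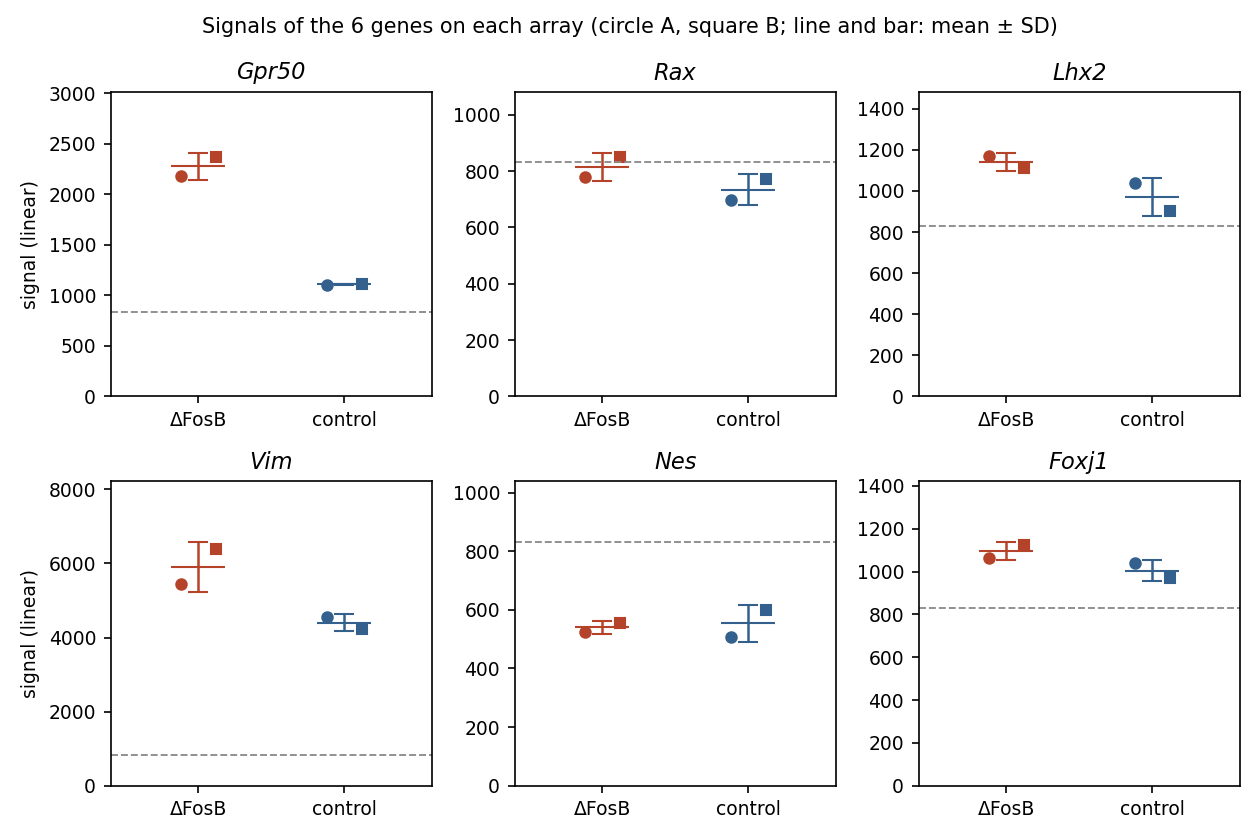
Signal of each of the 6 genes on a linear scale (vertical axes, each panel with its own range) on ΔFosB arrays (red, left) and control arrays (blue, right); circles are arrays A, squares arrays B, the line and bar the mean ± SD (n = 2), and the dashed line the 95th percentile of receptor probe sets, 831. The groups lie far apart for Gpr50, are separate for Vim, lie close together for Lhx2, Foxj1 and Rax, and overlap for Nes, whose 4 values are below the dashed line.

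The transcription factor genes of tanycytes were slightly higher on both ΔFosB arrays, without passing the test. Lhx2 had signals of 1172 and 1109.8 on ΔFosB arrays A and B, against 1037 and 904 on control arrays A and B. The lower ΔFosB array exceeded the higher control array by 0.10 on the log2 scale, less than the 0.20 between the control arrays. Its log2 fold change was 0.24 (SE 0.08, 95% interval 0.05 to 0.42, limma adjusted p = 0.0920, unadjusted p = 0.0184). Rax had signals of 779 and 850.1 on ΔFosB arrays A and B, against 696 and 773 on control arrays A and B. The gap between the groups was 0.01 on the log2 scale, and both group means lay in the receptor range. Its log2 fold change was 0.15 (SE 0.08, 95% interval -0.04 to 0.34, limma adjusted p = 0.257). A p above the threshold does not show that the levels of Lhx2 and Rax were equal in the groups.

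Foxj1 had signals of 1065 and 1125 on ΔFosB arrays A and B, against 1038 and 969.5 on control arrays A and B. The groups were separate by 0.04 on the log2 scale, less than the difference between the arrays of either group. Its log2 fold change was 0.13 (SE 0.07, 95% interval -0.03 to 0.29, limma adjusted p = 0.264). Of the 6 genes, 5 were higher on both ΔFosB arrays than on both control arrays, while Nes overlapped. Over all genes tested the groups did not overlap in 60.3%, with 34.7% higher and 25.6% lower on both ΔFosB arrays. This pattern was more frequent among dim genes. Of 2617 genes with mean signals between 717 and 1000, the range of Rax, 51.7% were higher on both ΔFosB arrays and 12.6% lower, and their median log2 fold change was 0.10. Of 5130 genes between 1000 and 2000, the range of Lhx2, Foxj1 and Gpr50, the shares were 37.7% and 24.0%, with a median of 0.03. Quantile normalization brought these medians to 0.03 and 0.01. With it, the log2 fold change was 0.07 for Rax, 0.08 for Foxj1 and 0.19 for Lhx2.

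**Figure D2:**
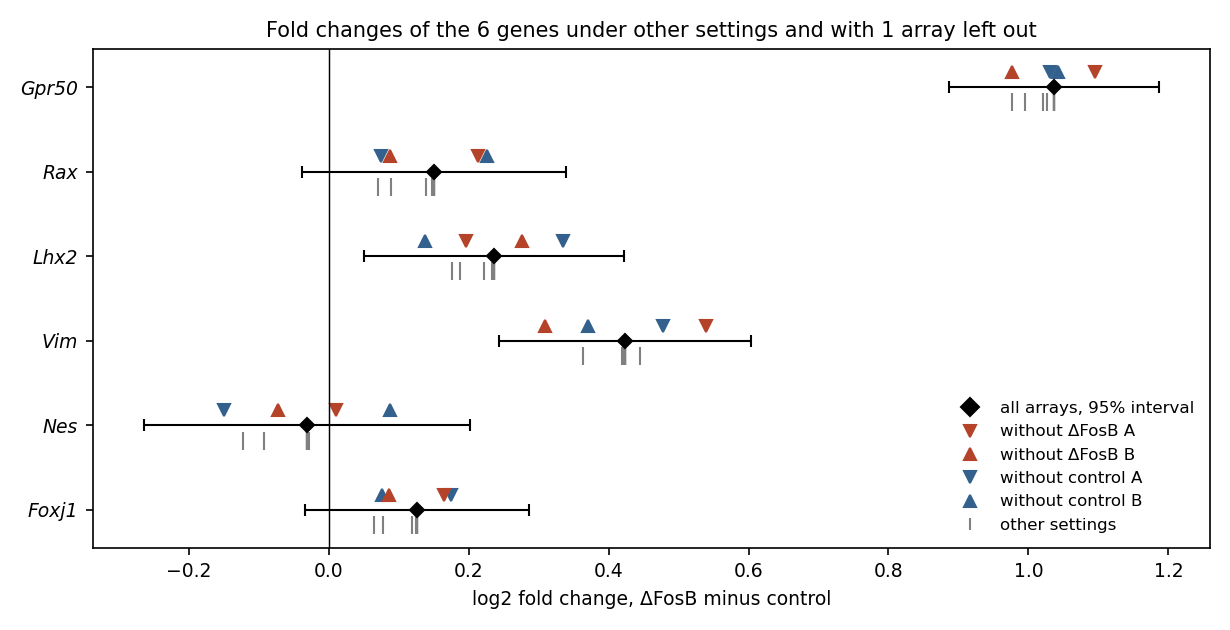
Log2 fold change of the 6 genes, ΔFosB minus control (horizontal axis), with all arrays (diamond and 95% interval), with 1 array left out (triangles) and under the other settings tried (grey ticks); Nes is from fits without a filter. Gpr50 stays between 0.98 and 1.10 and Vim between 0.31 and 0.54, while Nes lies on both sides of 0.

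Other tanycyte genes were mixed. Of 22 listed genes, 21 were on the array and 20 were tested. Of these, 7 rose, 3 fell and 10 did not pass, against 6.18% and 6.91% over all genes, and the median log2 fold change was 0.10, against 0.02 over all genes. Six6 and Frzb, counted among the 7, had control means of 698 and 705, below the filter, and passed it through their ΔFosB signals. Without a filter 6 of 21 rose and 1 fell, against 3.90% and 4.19% over all genes. After quantile normalization 5 of the 20 rose and 2 fell. The summed signals of the list were 40636 to 41062 on ΔFosB arrays, against 37935 to 38713 on control arrays. Such sums weigh bright genes most. Among these, Sox2 (mean 4145 against 3102) and Scn7a (2668 against 1433) were higher in ΔFosB, and Cd59a (5135 against 6067) was lower. Scn7a, which encodes the sodium-level sensor channel of glia in sensory organs of the ventricle wall, had signals of 2919 and 2416 on ΔFosB arrays, against 1378 and 1488 on control arrays, with no overlap. It rose by 0.89 (SE 0.09, limma adjusted p = 0.000613). Sox2, a transcription factor of neural progenitors and glia, had signals of 3933 and 4357 on ΔFosB arrays, against 2996 and 3208 on control arrays, and rose by 0.42 (SE 0.07, adjusted p = 0.00585). The homeobox genes Six6 and Six3 of the anterior hypothalamus rose by 0.37 (SE 0.07) and 0.33 (SE 0.08), and the collagen gene Col25a1 by 0.35 (SE 0.07). Six6 was dim in control arrays and at least 1.09-fold higher in the group means, counting the control arrays at the receptor percentile. With 1 array left out, Six3 lost its call in 3 of 4 cases, with an adjusted p of 0.163 for control A, 0.0575 for control B and 0.0942 for ΔFosB A, and Col25a1 lost its call for control A (0.0927).

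Dio2, the thyroid hormone gene named above, was lower. It had signals of 797 and 924 on ΔFosB arrays A and B, against 1482 and 1176 on control arrays A and B. Both ΔFosB arrays were below both control arrays, though the control arrays differed widely. Dio2 fell by 0.62 on the log2 scale (SE 0.11, limma adjusted p = 0.00980), but by 0.45 with control replicate A left out (adjusted p = 0.0549). Slco1c1, a thyroxine transporter gene, differed by -0.27 (SE 0.08) and did not pass (adjusted p = 0.0522). Crym, whose protein binds thyroid hormone and which was chosen after its values were seen, differed by 0.14 (SE 0.07, adjusted p = 0.250). Vcan, a matrix proteoglycan, and Cd59a, a complement inhibitor, fell by 0.24 each (SE 0.06 each, adjusted p = 0.0393 and 0.0440). The Vcan call ended with any 1 array left out (adjusted p 0.0598 to 0.167) and without a filter (0.0513). The Cd59a call ended with control A (0.253), ΔFosB A (0.0656) or ΔFosB B (0.106) left out, with quantile normalization (0.0801) and without a filter (0.0539). Tgfb2, a growth factor gene, differed by -0.10 (SE 0.06, adjusted p = 0.351). The number of called genes of the list was 10 with all arrays, 3 with control A left out, 6 with control B left out, 5 with ΔFosB A left out and 7 with ΔFosB B left out. Fndc3c1, below the filter and chosen after its values were seen, had signals of 467 and 509 on ΔFosB arrays, against 149.7 and 163 on control arrays, all in the receptor range (1.64, SE 0.11, limma adjusted p = 0.000187 without a filter).

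The genes of ependymal cells and motile cilia, other than Foxj1, were higher or did not pass, and 0 fell. Of 35 listed genes, 33 were on the array and 16 were tested. Of these 9 rose and 7 did not pass, against 6.18% called higher over all genes. Among the 9, Ak7, Cfap126, Lrrc23 and Tmem212 had control means of 657 to 716, below the filter. They passed the filter, set on the mean of all 4 arrays, through their ΔFosB signals. Without a filter 12 of 33 rose and 0 fell, against 3.90% and 4.19% over all genes, and 30 of 33 were higher and 0 lower on both ΔFosB arrays, against 39.5% and 19.5% of all genes. The median over the 33 was 0.28, against 0.05 over all 21265 genes and 0.13 over the 6745 genes below the filter. Of the 33, 17 were below the filter, where 49.7% of the 6745 genes were higher and 6.49% lower on both ΔFosB arrays. After quantile normalization 10 of the 16 rose, and the median of the 33 was 0.21. Both group means were in the receptor range for 17 of the 33, and the summed signals of the list were 36169 to 37007 on ΔFosB arrays, against 29736 to 29899 on control arrays. The number called was 5 without control replicate A, which moved it by over 1.5-fold, and 7 to 10 without each other array.

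Meig1, needed for sperm formation and also made by ciliated cells, had signals of 1451 and 1351 on ΔFosB arrays, against 838 and 737 on control arrays. Both ΔFosB arrays were well above both control arrays, whose mean was in the receptor range. It rose by 0.83 (SE 0.08, limma adjusted p = 0.000520), at least 1.68-fold. Rsph4a, which encodes a radial spoke protein of the cilium, had signals of 1359.7 and 1409.7 on ΔFosB arrays, against 977 and 973 on control arrays. It rose by 0.51 (SE 0.06, adjusted p = 0.00161). Rfx3, a transcription factor of ciliated cells that acts with Foxj1, had signals of 2231 and 2316 on ΔFosB arrays, against 1744 and 1739.8 on control arrays. It rose by 0.38 (SE 0.06, adjusted p = 0.00436). Within each group the Rsph4a and Rfx3 signals were close together, and the groups did not overlap. Cfap126, a gene of the ciliary axoneme, and Ak7, an adenylate kinase gene of cilia, rose by 0.61 (SE 0.08) and 0.63 (SE 0.08), at least 1.32-fold and 1.22-fold since their control means lay in the receptor range. All of these 5 calls held with any 1 array left out, where the adjusted p was at most 0.0347.

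The tested cilium genes with the lowest statistics had positive log2 fold changes that did not pass. Mcidas, the gene of multicilin, which starts the fate of multiciliated cells, had 0.14 (SE 0.07, limma adjusted p = 0.184). Nme5 had 0.18 (SE 0.07), Tekt1, a tektin gene of ciliary microtubules, 0.23 (SE 0.08), Enkur 0.20 (SE 0.07) and Ccdc153 0.24 (SE 0.07), with adjusted p-values of 0.0610 to 0.111. Foxj1, at 0.13, was of the size of Mcidas.

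**Figure D3:**
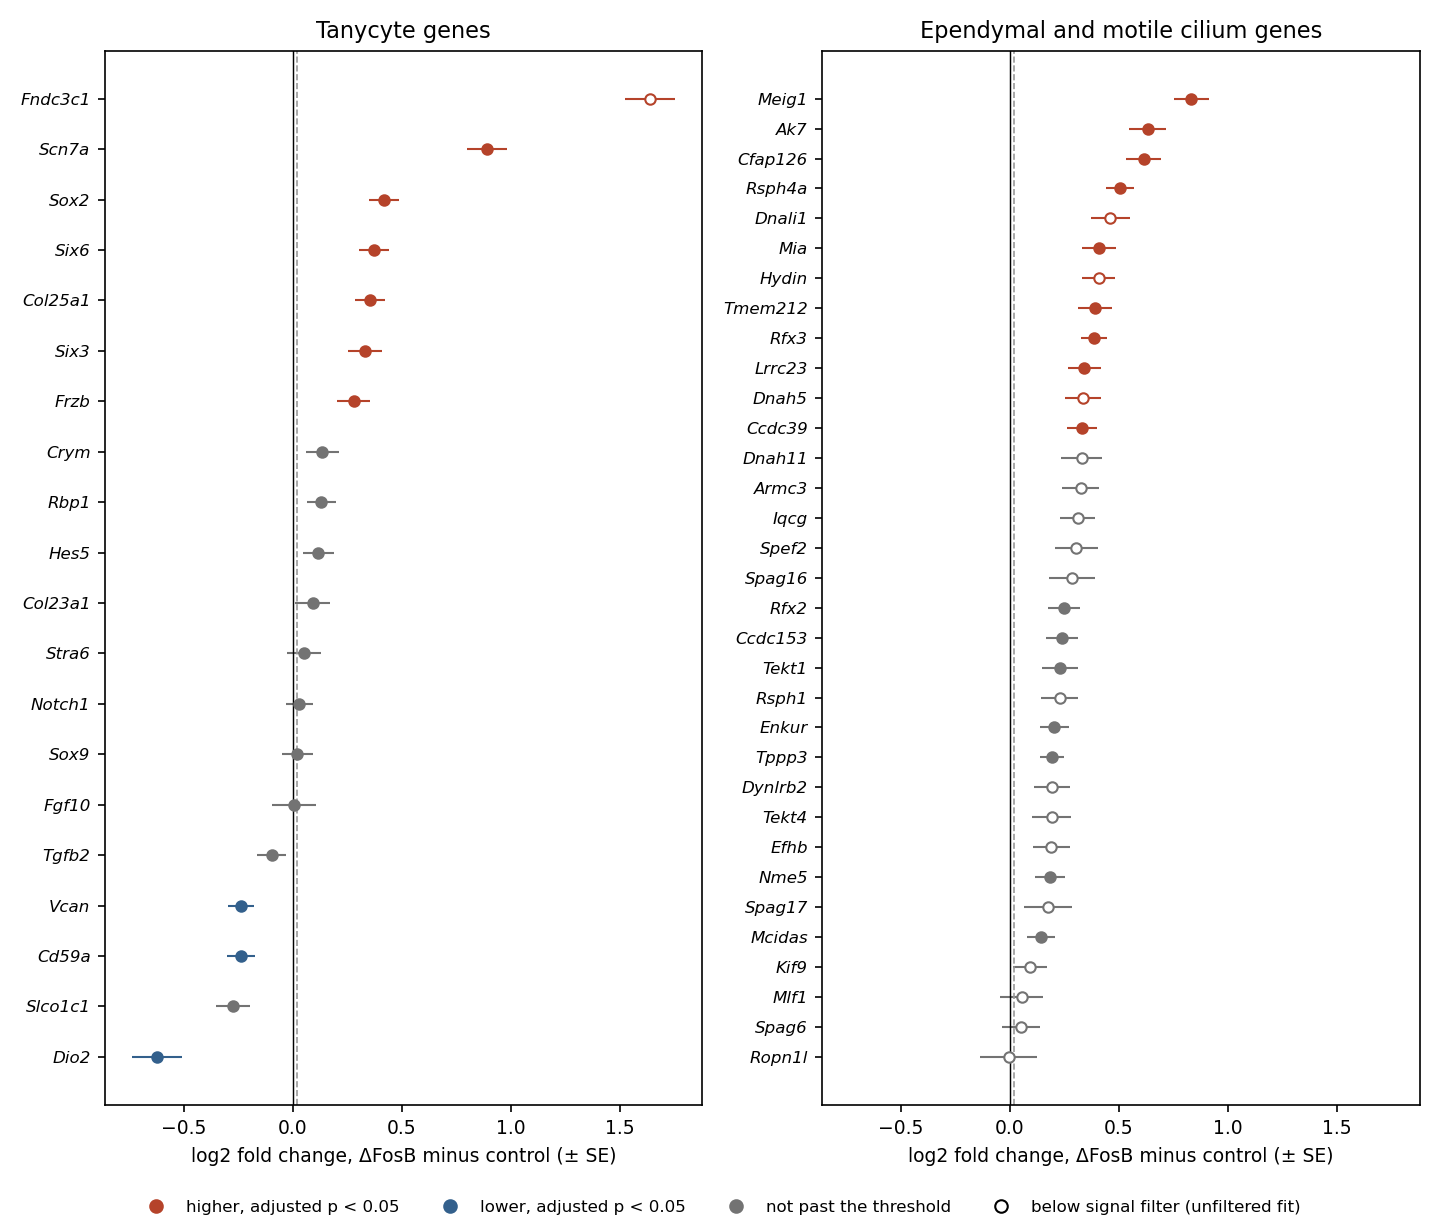
Log2 fold change, ΔFosB minus control, ± SE (horizontal axes), of tanycyte genes (left) and of ependymal and motile cilium genes (right), both without the 6 genes; red rose, blue fell, grey did not pass, open symbols are genes below the signal filter from the fit without it, 1 tanycyte gene counted in the text is not drawn, and the dashed line is the median over all genes tested, 0.02. Tanycyte genes lie on both sides of 0, from Dio2 at -0.62 to Fndc3c1 at 1.64, while 32 of the 33 cilium genes lie above it, with Ropn1l at -0.01.

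Markers of other cells that share these genes moved too, and their part in the results was not tested. No marker of any list was at 0 on any array, and low ones lay in the receptor range. A signal above 0 does not show that a marker was present, since receptor probe sets had a median of 299. Of all genes tested, 6.18% were called higher and 6.91% lower. Of 6 tested choroid plexus genes, an epithelium that is ciliated and expresses Foxj1, 4 rose and 0 fell. Among the 4, Kl and Folr1 had control means of 636 and 711, below the filter, and passed it through their ΔFosB signals. Without a filter 3 of 9 rose and 1 fell, against 3.90% and 4.19% over all genes. The summed signals of the 9 on the array were 7849.6 and 8499.8 on ΔFosB arrays, against 6543 and 8079.8 on control arrays. Prlr, also a gene of neurons, and Kl rose by 0.74 (SE 0.07) and 0.42 (SE 0.08), at least 1.62-fold and 1.02-fold since their control means lay in the receptor range. Without a filter Otx2, the transcription factor gene of this epithelium and of midbrain neurons, fell, and was at least 1.02-fold lower since its ΔFosB mean lay in the receptor range; it was chosen after its values were seen. Ttr, the most abundant choroid plexus transcript, had signals of 848 and 1206 on ΔFosB arrays, against 849.9 and 1806 on control arrays, and so was near the receptor range on array A of both groups. Clic6 differed by 0.24 (SE 0.09, limma adjusted p = 0.120). The number called was 2 when control A or ΔFosB B was left out.

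Astrocytes and vessels are other sources of Vim. The counts below stand against 6.18% called higher and 6.91% lower over all genes tested. Of 11 tested astrocyte genes 1 rose and 5 fell, with summed signals of 68070.0 to 69075 on ΔFosB arrays, against 73255 to 75374 on control arrays. Aqp4, the water channel of astrocyte endfeet, and S100b fell by 0.54 (SE 0.06) and 0.36 (SE 0.05), while the glutamate transporter gene Slc1a3, which tanycytes also express, rose by 0.37 (SE 0.05), and Slc1a2 had -0.05 (SE 0.04). The number of astrocyte genes called was 3 with control A left out, against 6 with all arrays. Of 9 endothelial genes 0 rose and 5 fell, with summed signals of 12844 to 13312 on ΔFosB arrays, against 14888 to 15730.3 on control arrays. Slco1a4 and Tek fell by 0.41 and 0.39 (SE 0.07 each), and Kdr and Pecam1 had 0.05 (SE 0.10) and -0.05 (SE 0.07). The number of endothelial genes called was 5 with all arrays, 2 with control A left out and 3 with ΔFosB A left out, and no call was made with control B left out. Of 7 mural genes 1 fell, Rgs5 by 0.42 (SE 0.06), and the median of the list was 0.07. The share of mural genes called, 14.3%, was near the 13.1% of all genes tested. In limma's test 0 of 7 microglial genes passed (1 at an unadjusted p under 0.05). Of 6 meningeal genes 2 rose, Col1a2 by 0.33 (SE 0.08) and Col1a1 by 0.22 (SE 0.06), and both calls ended with quantile normalization, without a filter, and with control A or ΔFosB B left out.

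Genes of myelin and of neighbouring regions differed as well. Among all genes tested, 6.18% were called higher and 6.91% lower. All 12 tested myelin genes fell, with a median log2 fold change of -0.67, and 7 of 9 genes of midbrain dopamine neurons fell, with a median of -1.50. In limma's test 0 of 8 thalamic genes passed (5 at an unadjusted p under 0.05), with a median log2 fold change of -0.46. The number passing was 6 with ΔFosB A left out and 1 with control B left out. Within the groups the median of the thalamic genes differed by -0.66 between ΔFosB arrays B and A and by -0.46 between control arrays B and A. For the 6 genes the same differences between B and A ran between -0.08 (Lhx2) and 0.23 (Vim) in ΔFosB and between -0.20 (Lhx2) and 0.24 (Nes) in control arrays. In limma's test 0 of 2 pituitary genes passed (1 at an unadjusted p under 0.05). Of 11 in the fit without a filter, 1 rose and 0 fell, against 8.09% of all genes called, 3.90% higher. That gene, Cga, chosen after its values were seen, rose at least 1.31-fold, since its control mean lay in the receptor range. Of 3 genes of cortex and hippocampus, 2 rose, Nptx1 by 0.65 (SE 0.06) and Emx1 by 0.31 (SE 0.07), while Slc17a7 had -1.33 (SE 0.55, limma adjusted p = 0.142). Only 1 passed with control A or ΔFosB B left out. In limma's test 0 of 8 general neuronal genes passed (1 at an unadjusted p under 0.05).

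**Figure D4:**
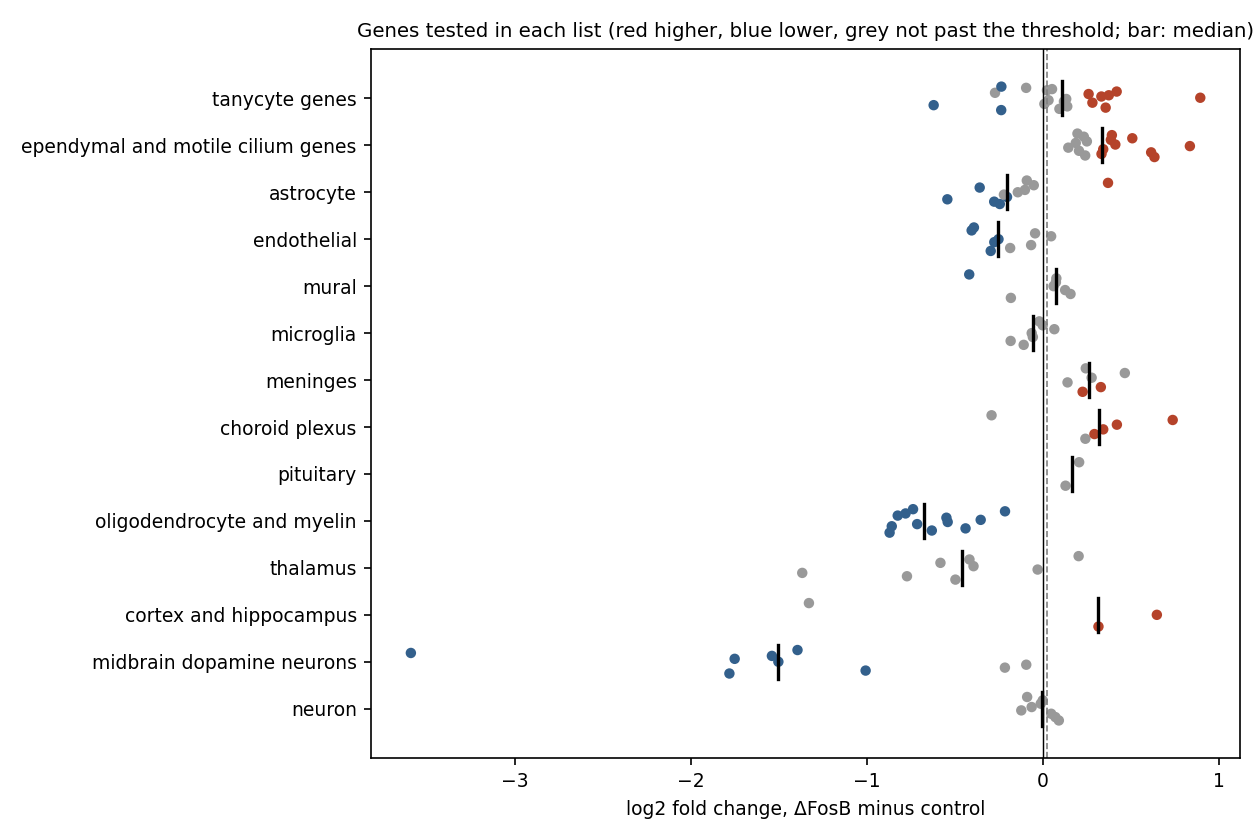
Log2 fold change, ΔFosB minus control (horizontal axis), of each gene tested in lists of cell types and regions (rows); red rose, blue fell, grey did not pass, the bar is the median of a list and the dashed line the median of all genes tested, 0.02. The cilium list lies above 0 with a median of 0.34, and the myelin and dopamine neuron lists lie below it.

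Fosb had signals of 1579 and 2189 on ΔFosB arrays, against 1377 and 1219.8 on control arrays. The groups did not overlap, and Fosb rose by 0.52 (SE 0.13, limma adjusted p = 0.0389), while Eno2 differed by -0.05 (SE 0.04). The Fosb call ended with control A (0.0853), control B (0.147) or ΔFosB B (0.0684) left out and with quantile normalization (0.0616). Whether the Fosb probe set lies in the part carried by the mice was not analysed here. Likeness of profile was measured as the Euclidean distance between log2 values over the 4 arrays after centring each gene. The genes nearest to Gpr50 were Pomc, the melanocortin precursor of arcuate neurons (distance 0.09), Calcr, the calcitonin receptor gene (0.12), and Npy2r, a neuropeptide Y receptor gene (0.14). Pomc had signals of 1588 and 1606 on ΔFosB arrays, against 804 and 811 on control arrays, the control values lying in the receptor range. Its likeness to Gpr50 is the basis on which it was chosen. Npy2r had control signals of 531 and 595, in the receptor range and below the filter. It passed the filter through its ΔFosB signals of 1140.5 and 1139. Nearest to Vim were Tmem217 (0.07), Anxa2 (0.07), which encodes the membrane-binding protein annexin A2, and Sytl5 (0.08). The control signals of Anxa2, 656 and 652, were likewise in the receptor range and below the filter. Nearest to Lhx2 were Camk2a, Srrm4 and Pi16 (0.02 each), and all Pi16 signals lay in the receptor range. Rax was nearest to Sgpp1, Kmt2a and Sde2 and Foxj1 to Slc7a5, Ccnd3 and Pkdcc, all at 0.02 or less.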

How the data were processed

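Per the labels' protocols, total RNA was isolated with Trizol and converted to biotinylated cRNA. The authors deposited linear intensities for each probe set, and the submitters' processing notes name MAS5. Its version, its scaling and the annotation's build: not given in the sources used here. The sheet held 35474 probe sets and equalled the deposited value table (largest difference 0). Intensities summed to between 68636600 and 68961800 on an array. The 16 ratio columns of the authors' sheets were not used.

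Log2 values were taken with no pseudocount. The 60% of probe sets with the highest mean log2 signal were kept, symbols were updated by gene identifier (21637 of 23015 probe sets matched RefSeq, GRCm38.p6), and each gene took its brightest probe set. Groups were compared with limma (lmFit, eBayes with an intensity trend), without a block. With 2 residual degrees of freedom, the calls rest on the variance that limma shares across genes, and a permutation test of 2 against 2 arrays could not go below p = 0.333. The number of arrays limits the precision (median SE 0.066). The procedure was run on simulated data with variances drawn from limma's own fit to these arrays, which cannot show whether the calls are right. "At least" folds use, for a group whose mean is in the receptor range, the higher of each signal and the receptor 95th percentile, and do not allow for the spread between arrays.

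The members and lists were chosen with earlier results of these data known. Named genes were the members, up to 5 highest and 5 lowest statistics of the tanycyte and cilium lists, 2 and 2 of each other list, Fosb, Eno2 and the 3 nearest profiles of each tested member. Further genes were named for a control mean below the filter or, where stated, after their values were seen. Each array was left out in turn, and other alternatives were the upper 40% of signal or no filter, pseudocounts of 16 and 64, median centring, quantile normalization, other probe set rules, a replicate block, and eBayes without a trend, robust or replaced by an unmoderated test. The summary by signal range was added after seeing the data. Fits used limma 3.58.1 in R 4.3.3. Tables and figures used Python 3.11.15 with numpy 2.4.6, matplotlib 3.10.9 and pandas 2.3.3. The values of 1 gene counted in the tanycyte list are not reported here.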

Additional observations from a re-analysis of the deposited data

How the results depend on the processing

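Gpr50 was called in 15 of 16 alternatives and Vim in 14 of 16, and Rax and Foxj1 in 0 of 15 each. An unmoderated test called 0 genes (2690 at an unadjusted p under 0.05), 0 tanycyte genes (5) and 0 cilium genes (10). In it Gpr50 at 1.04 had an adjusted p of 0.175 and Vim at 0.42 one of 0.310. With 1 array left out, Vim ran between 0.31 and 0.54, and Nes between -0.15 and 0.088, turning positive without control replicate B (0.088) and ΔFosB replicate A (0.01). Tanycyte genes called then numbered 3 to 7, against 10, cilium genes called 5 to 10, against 9, and all genes called 253 to 749 higher and 449 to 948 lower, against 898 and 1004. With the upper 40% of signal, 520 genes were higher, and 6 of the 12 tanycyte and 2 of the 3 cilium genes still tested were called. Median centring gave 490 higher and 1584 lower, 23.6% higher against 47.2%. It sets the array medians over all probe sets equal. These were 976 and 967 on ΔFosB arrays A and B, against 918 and 946 on control arrays A and B. The centring thus lowered the median log2 fold change of the tested genes from 0.02 to -0.04. Why the array medians differed was not tested. The letters A and B are shared by the groups, but the labels do not say that they pair samples. The A-minus-B differences of the groups correlated at 0.24 across genes. The replicate block gave 1936 higher and 1888 lower, 14 cilium genes, and Lhx2 past the threshold (0.24, adjusted p = 0.0200). Signals near those of receptor probe sets limit what can be said of Rax and Nes.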
